A study of Mus musculus with 34 samples.

Results

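Open chromatin was mapped by ATAC-seq around 8 genes of the Notch pathway that act in vessel formation: the receptors Notch1 and Notch4, the ligands Dll4 and Jag1, the DNA-binding effector Rbpj, and the target repressors Hey1, Hey2 and Hes1. Every summit of the 19 deposited lists that lay inside a gene interval or within 50 kb of it was collected, and summits within 250 bp of each other were joined into 1 position. This gave 99 positions, out of 156849 positions formed in the same way across the genome. Rbpj had 18 positions, Notch1 16, Notch4 13, Jag1 13, Hes1 12, Dll4 11, Hey1 8 and Hey2 8.

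The cells were embryonic fibroblasts of the mouse and embryoid bodies (EB), clumps in which embryonic stem cells differentiate, and doxycycline (Dox) switches on Etv2 in them. Etv2 belongs to the ETS transcription factors and directs blood and endothelial fate. Per the labels, the fibroblasts carry the inducible construct iHA-Etv2. Fibroblasts were profiled after Dox on days 1, 2 and 7, the last also as cells positive for Flk1 (the VEGF receptor encoded by Kdr), with uninduced fibroblasts on day 0 as their common control. Fibroblasts with knockdown of Brg1, the ATPase of the SWI/SNF remodelling complex, were taken on day 0 and then on days 1, 2 and 7, each both with Dox and without it. EB were profiled at 12 h as induced Flk1-positive cells, induced unsorted cells and uninduced cells. The titles of these EB also carry the tag D25. The 12 h was read here as the time of induction and not as the age of the EB. Brg1-floxed EB were profiled on day 4, all labelled with Dox, with or without 4-hydroxytamoxifen (4OHT), and the series design text calls the EB of that day Brg1 knockout. The driver of the recombinase, the number of clones and the strain are not given in the sources used here. The 34 samples form 17 groups of 2. For 15 groups the labels of both replicates name 1 common list, so their comparisons have no replicate error and no p-value, and "gained" and "lost" mean presence in 1 list of a pair only. Each of the 4 floxed EB samples has its own list. Bulk chromatin does not separate fewer open cells from less opening per cell.

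Notch receptors are cut when a Delta or Jagged ligand on a neighbouring cell pulls on them, and the released intracellular domain joins Rbpj on DNA and switches on repressors of the Hes and Hey families. In vessels, Dll4 signalling to Notch1 restrains tip cell formation and, through Hey1 and Hey2, favours arterial over venous identity. Notch4 is expressed mainly in endothelium, and Jag1 acts in vessel sprouting and in the smooth muscle coat. ETS factors, Etv2 among them, bind DNA with a GGAA core.

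Promoter sequence of GRCm38.p6 (mm10) from RefSeq was found for 6 of the 8 genes. The promoters of Dll4, Notch4, Hey2 and Rbpj are shown because their start sites represent the patterns seen: called in EB lists at 12 h only (Dll4), seldom called (Notch4), and called in nearly every list (Hey2 and Rbpj). Each runs 5′ to 3′ on the gene's own strand over the 250 bases before the start, and capitals mark a match to an ETS motif (the letters ACCGGAA, the letters CAGGAAG or the letters CCGGAAG) or to the RBPJ motif (TGGGAA) on either strand.
Dll4, chr2:119325534-119325783, plus strand: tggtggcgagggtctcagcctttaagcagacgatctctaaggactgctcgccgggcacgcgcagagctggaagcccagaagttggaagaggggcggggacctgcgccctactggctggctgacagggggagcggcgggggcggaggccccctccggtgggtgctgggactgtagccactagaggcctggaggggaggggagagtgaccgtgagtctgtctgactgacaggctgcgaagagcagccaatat
Notch4, chr17:34564045-34564294, plus strand: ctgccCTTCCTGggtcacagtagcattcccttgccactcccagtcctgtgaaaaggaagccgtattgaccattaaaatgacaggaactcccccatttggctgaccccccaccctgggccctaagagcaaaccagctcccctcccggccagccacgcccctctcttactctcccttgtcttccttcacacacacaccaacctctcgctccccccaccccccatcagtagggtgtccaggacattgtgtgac
Hey2, chr10:30842784-30843033, minus strand: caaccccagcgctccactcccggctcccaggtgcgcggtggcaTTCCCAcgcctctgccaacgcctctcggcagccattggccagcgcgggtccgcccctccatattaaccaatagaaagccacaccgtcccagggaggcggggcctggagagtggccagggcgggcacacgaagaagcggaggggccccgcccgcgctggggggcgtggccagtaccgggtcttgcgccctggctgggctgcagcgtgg
Rbpj, chr5:53590096-53590345, plus strand: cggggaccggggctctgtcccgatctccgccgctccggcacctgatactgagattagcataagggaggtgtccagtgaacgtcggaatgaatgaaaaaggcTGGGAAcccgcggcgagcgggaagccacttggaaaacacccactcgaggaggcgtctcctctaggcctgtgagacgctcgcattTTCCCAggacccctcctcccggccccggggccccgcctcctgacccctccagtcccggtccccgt
The Notch4 stretch held 1 ETS match (CAGGAAG on the opposite strand, 239 to 245 bases before the start). The Rbpj stretch held 2 matches to its own protein's motif and the Hey2 stretch 1, whereas the Dll4 stretch held no match to either motif. The GGAA core alone was not searched for, and it occurs unmarked in the printed Dll4, Notch4 and Rbpj stretches. Of 32851 mouse promoters of this length, 17.9% held an ETS match and 21.6% an RBPJ match. The 7 promoters of the 6 genes held no FOX match (TAAACA) and no AP-1 match (TGANTCA), which were present in 12.0% and 6.75% of all promoters. These matches describe letters in a window and do not show binding.

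The lists differed in length, and the number of positions around the 8 genes followed. The fibroblast lists without knockdown held 54366 positions genome-wide before induction, 41505 after 1 day, 21117 after 2 days and 14132 after 7 days, and Flk1-positive cells of day 7 held 24235. The knockdown lists held 8850 to 40137, the EB lists 49968 (Flk1-positive), 68448 (induced) and 78072 (uninduced), and the floxed EB lists 17784 and 20043 with 4OHT and 31143 and 23568 without. Positions around 10 fibroblast marker genes numbered 8 in the day 7 list, where Col1a2, Prrx1, Thy1 and Pdgfra had none, against 69 in uninduced fibroblasts. The 7 pluripotency markers summed to 54 positions in Flk1-positive, 77 in induced and 74 in uninduced EB at 12 h, and to 6 to 26 in the 5 fibroblast lists without knockdown. In those fibroblast lists Sox2 and Esrrb had none, while Pou5f1, Nanog, Klf4 and Fgf4 had positions in every one. Etv2 itself had 9 or 10 positions in the EB lists at 12 h and 1 to 5 in the fibroblast lists, and a knockdown of Brg1 cannot be checked at the DNA.

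**Figure D1:**
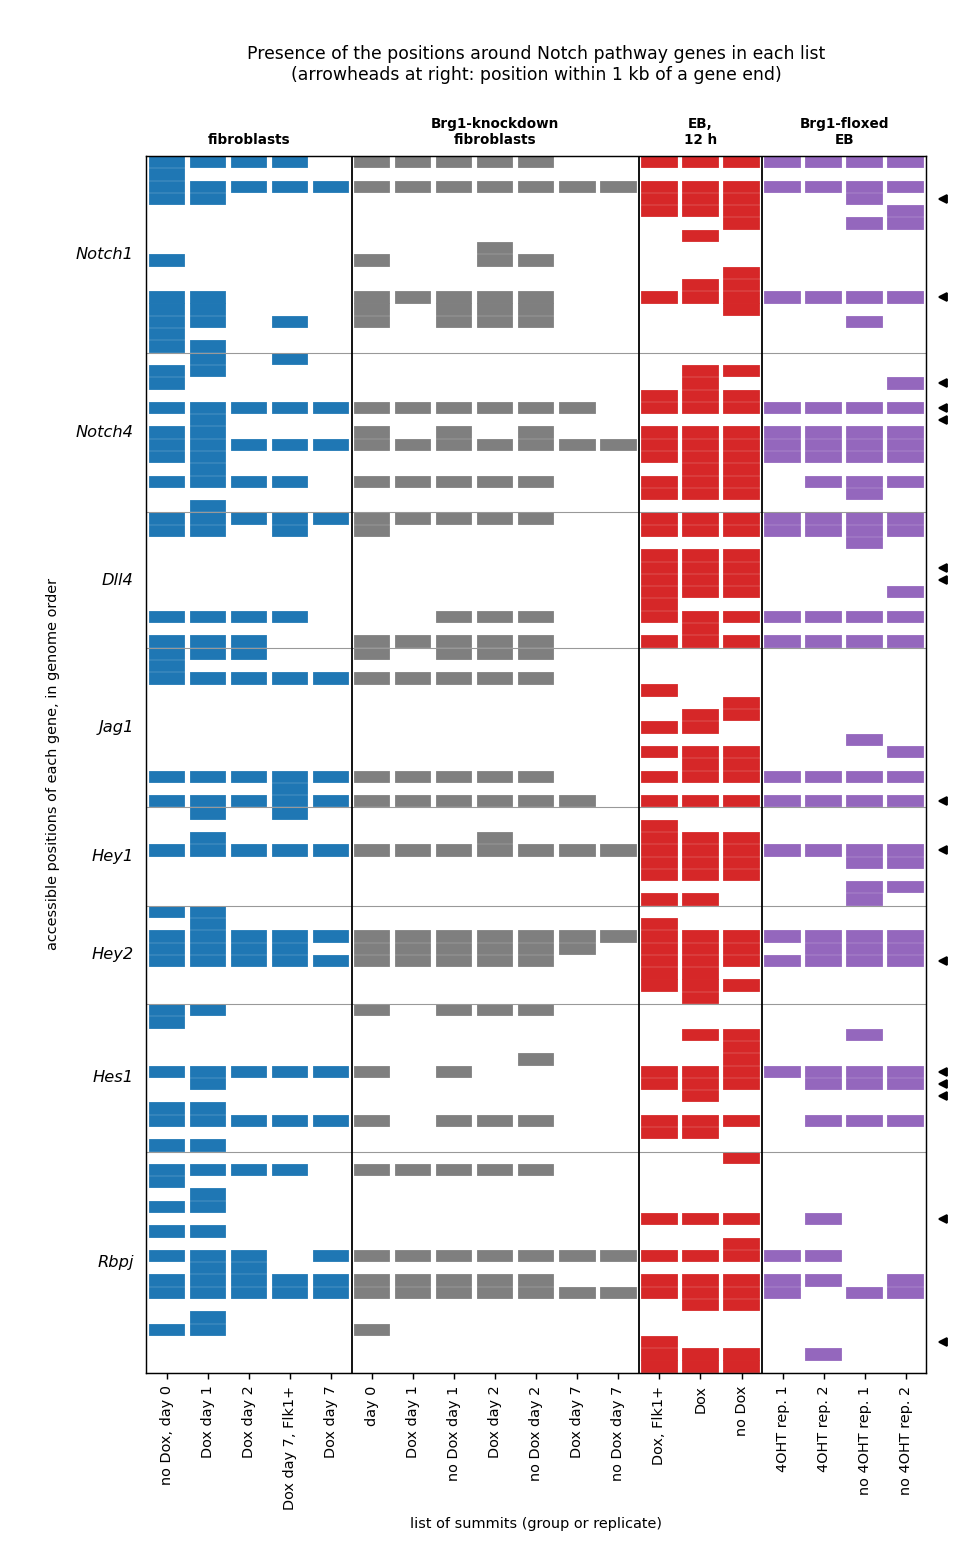
Presence (filled) of each of the 99 positions, in rows by gene and genome order, in each of the 19 lists, in columns by group. The Dll4 rows with arrowheads are filled in EB columns only, while the Hey1 row with the arrowhead is filled in all 19.

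Of the 99 positions, 40 (40.4%) were in EB lists only, 26 (26.3%) in fibroblast lists only and 33 (33.3%) in both kinds. Over all positions of the genome these shares were 43.5%, 36.2% and 20.3%. A position was in 1 list only for 26 of the 99 (26.3%, against 39.6% genome-wide) and in 15 or more lists for 17 (17.2%, against 7.07%). The 4 positions present in all 19 lists belonged to Notch1, Notch4, Hey1 and Hey2, and of these only the Hey1 position lay within 1 kb of an end of its own gene. The genome-wide shares stand here as a description, and no test was made against them. Of the 99 positions, 21 lay within 1 kb of another protein-coding gene, and 9 such genes lie in the Notch4 window alone, so a position is assigned to a gene here by distance and not by function.

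Dll4, the ligand of arterial and sprouting endothelium (chr2:119325784-119335666, plus strand), had more positions in EB at 12 h than in any fibroblast list. Its window held 9 positions in induced Flk1-positive EB, 9 in induced EB and 8 in uninduced EB. The fibroblast lists without knockdown held 4 uninduced, 4 on day 1, 3 on day 2 and 1 on day 7, and Flk1-positive cells held 3. The knockdown lists held 0 to 3, the floxed EB 4 and 4 with 4OHT and 5 and 5 without. The EB lists at 12 h and the fibroblast lists did not overlap in this count. The same held for Hey1, so for 2 of the 8 genes, and for 28.2% of all protein-coding genes with a position in these lists, so it is not particular to Dll4.

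The positions around the Dll4 start, chosen for naming after their values were seen, were called in EB lists only. The position chr2:119325311-119325674, 110 bp upstream of the start at its nearest summit, was called in all 3 EB lists at 12 h and in no other list. It overlaps the Dll4 sequence printed above. Its summit scored above 33.0% of the summits in the Flk1-positive list, 55.6% in the induced list and 37.7% in the uninduced list, which places it in the lower or middle range of each list. Another pair of positions had the same pattern, chr2:119322687-119322738 at 3046 bp upstream and chr2:119326097-119326561 at 313 bp downstream. The position chr2:119327009-119327231, inside the gene at 1225 bp from the start, was in the same 3 lists and in 1 floxed EB list without 4OHT. All 4 were called in uninduced EB as well as in both induced EB lists, but joined summits need not coincide. In chr2:119325311-119325674 the strongest summit was 119325674 in Flk1-positive, 119325649 in induced and 119325400 in uninduced EB. The summit 110 bp from the start is thus that of the Flk1-positive list, and the single uninduced summit lay farther upstream.

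No Dll4 position was confined to fibroblast lists, and the 4 positions that fibroblasts shared with EB all lay outside the gene. The position downstream of the gene, chr2:119337784-119338151, 2118 bp beyond its end, was in 14 lists. It scored above 67.2% of summits in induced Flk1-positive EB, 86.7% in induced EB and 79.8% in uninduced EB. In fibroblasts it scored above 54.6% uninduced, 54.2% on day 1 and 28.0% on day 2, was absent from the unsorted day 7 list, and scored above 29.7% in the Flk1-positive list. The upstream position chr2:119300270-119300584, 25200 bp from the gene, scored above 85.4%, 91.2% and 83.8% of summits in the same order of EB lists, against 48.6% in uninduced fibroblasts and 16.7% on day 1. The day 2 and day 7 lists lacked it and the day 7 Flk1-positive list had it above 8.03% of its summits. In the knockdown day 7 lists all 11 positions were missing.

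The induced and uninduced EB lists are longer than any fibroblast list. Each of these was therefore also cut to its 62028 highest-scoring summits, the length of the uninduced fibroblast list. This alternative was chosen after the data were seen. The Flk1-positive EB list has 58004 summits and stayed whole, so any position in it had to remain. Of the 6 Dll4 positions that were in an EB list at 12 h and in no fibroblast list, 5 were still there. These 5 are all in the uncut Flk1-positive list, so their number says nothing about list length. After the cut, chr2:119325311-119325674 was still in all 3 EB lists and chr2:119326097-119326561 in 2. Over the 8 genes 30 of 37 such positions were still there, and for Notch1 1 of 5, with the same limit.

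**Figure D2:**
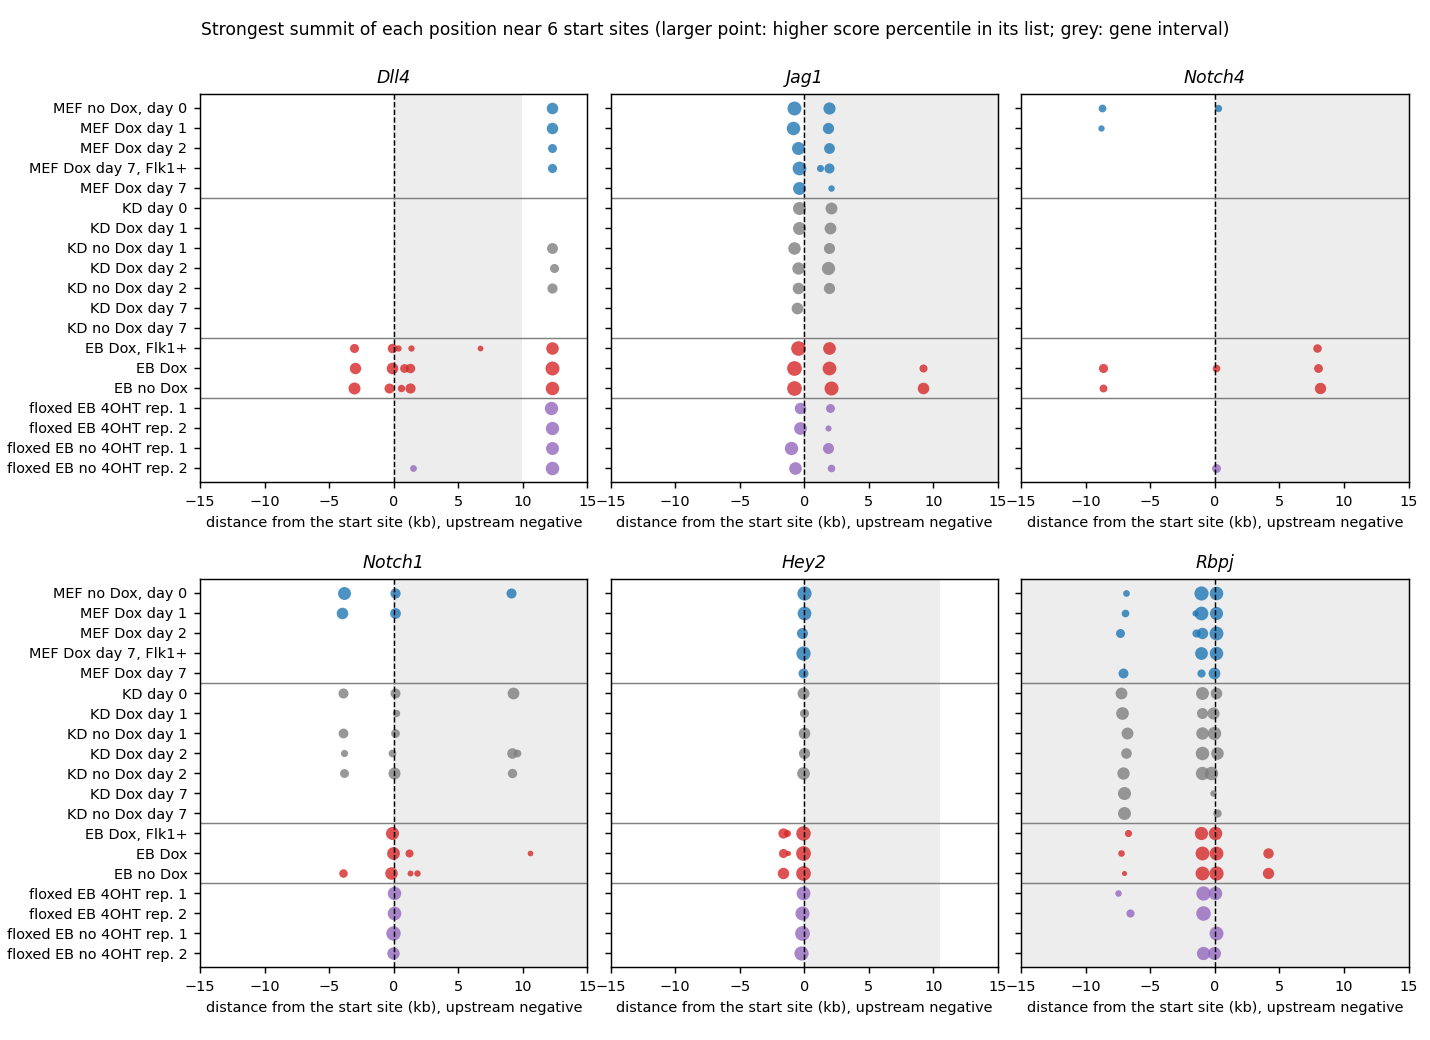
Strongest summit of each position within 15 kb of the start site (horizontal axis, kb, upstream negative) of 6 genes in each of the 19 lists (rows), with point size following the percentile of the score in its list. Red points (EB at 12 h) crowd the Dll4 start, where fibroblast lists (blue and grey) have no point, whereas Jag1, Hey2 and Rbpj have points at the start in nearly all rows.

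Jag1, the second ligand (chr2:137081451-137116520, minus strand), was open at its start nearly everywhere. The position chr2:137116844-137117524, 324 bp upstream, was in 18 of the 19 lists and missing from the uninduced knockdown list on day 7. It scored above 96.4% to 97.9% of summits in the 3 EB lists at 12 h and above 72.6% to 86.2% in the 5 fibroblast lists without knockdown. Inside the gene, chr2:137114440-137114719, 1801 bp from the start, was in 17 lists, from fibroblasts and EB alike. Other positions away from the start differed between the cell types. The intragenic position chr2:137098497-137098580 was in all 3 EB lists at 12 h (above 65.5% of summits in Flk1-positive, 81.2% in induced and 77.3% in uninduced EB) and in 1 floxed list without 4OHT, and in no fibroblast list. The positions chr2:137049548-137049607 and chr2:137067785-137068119, beyond the 3′ end and within 1 kb of Slx4ip, were in 7 and 10 fibroblast lists and in no EB list. The second of these scored above 78.0% of summits in uninduced fibroblasts, 86.9% on day 1, 69.2% on day 2 and 0.53% on day 7, and above 94.5% in Flk1-positive cells on day 7. Of the Jag1 positions absent from the uninduced lists, chr2:137092755-137092799 was in induced Flk1-positive and induced EB, chr2:137115281 in Flk1-positive day 7 fibroblasts only and chr2:137074210 in Flk1-positive EB only. The first lies within 500 bp of chr2:137092493-137092503 and the last within 500 bp of chr2:137074706, both called in uninduced EB.

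Notch1, the main receptor (chr2:26457902-26503822, minus strand), had 10 positions in uninduced fibroblasts, 7 on day 1, 2 on day 2 and 1 on day 7, while Flk1-positive cells had 3. The EB lists at 12 h held 5 in Flk1-positive, 7 in induced and 9 in uninduced cells. Its start-site position, chr2:26503130-26504020, was in 14 lists. It was in the day 1 (above 46.1% of summits) and uninduced (40.3%) fibroblast lists, in 5 knockdown lists, and in all EB and floxed EB lists, above 65.3% to 92.4% of their summits. It was absent from the day 2, day 7 and day 7 Flk1-positive lists without knockdown and from both knockdown lists of day 7. The Notch1 position present in all 19 lists, chr2:26445367-26446097, lies 11805 bp beyond the 3′ end and within 1 kb of Sec16a. Around Notch1, chr2:26493264 was in induced EB only, above 3.07% of that list's summits. The positions chr2:26418341 and chr2:26494569-26494746 were in uninduced fibroblasts and in no induced fibroblast list without knockdown.

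Notch4, the endothelial receptor (chr17:34564286-34588543, plus strand), was seldom open at its start. The position chr17:34564372-34564554, 77 bp downstream of the start, was in 3 lists: induced EB (above 16.6% of summits), uninduced fibroblasts (13.8%) and 1 floxed EB list without 4OHT (27.0%). The promoter printed above held no summit of its own. A position inside the gene, chr17:34572198-34572616, was in the 3 EB lists at 12 h and in no other, above 23.9% of summits in Flk1-positive, 26.5% in induced and 52.6% in uninduced EB. The open positions of Notch4 that recurred in most lists lay at its far end or beyond: chr17:34587064-34587730, in 18 lists, and chr17:34603832-34604212, in all 19 and within 1 kb of Agpat1 and Rnf5. Among positions that uninduced fibroblasts lacked, chr17:34540603-34540780 was in day 1 (above 10.3% of summits) and day 7 Flk1-positive fibroblasts (0.62%). The position chr17:34619194-34619341 was in day 1 fibroblasts (23.6%) and in induced (23.5%) and uninduced EB (49.5%).

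Rbpj, the effector shared by all Notch receptors (chr5:53555779-53657445, plus strand), had starts at 53590346 and 53590486 that were open throughout. The position chr5:53589713-53590504, which spans the sequence printed above, was in 18 of 19 lists and missing from 1 floxed EB list with 4OHT. The position chr5:53589266-53589443, 903 bp upstream of the nearer start, was in 16. The position chr5:53582871-53583771 was in 16 lists, scored above 0.16% to 13% of summits in the EB lists at 12 h and above 44.7% to 73.3% in the 7 knockdown lists. In fibroblasts without knockdown it scored above 9.70% uninduced, 16.7% on day 1, 28.0% on day 2 and 37.1% on day 7. It was absent from the day 7 Flk1-positive list. At the gene's lower-coordinate end, chr5:53555701-53555955 was in the 3 EB lists and 1 floxed list with 4OHT, and in no fibroblast list. Of the positions that uninduced fibroblasts lacked, chr5:53588829-53588877 was in the day 1 (above 6.23% of summits) and day 2 (20.8%) lists. The day 1 list also held chr5:53542271 (32.1%) and chr5:53631889 (21.2%), and none of these positions was in an EB list. Within 500 bp of chr5:53588829-53588877 lies chr5:53589266-53589443, and within 500 bp of chr5:53631889 lies chr5:53632164-53632217. Both of these neighbours were called in uninduced fibroblasts.

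The Hey and Hes repressors each had a position within 1 kb of the gene that was in most lists. Hey1 (chr3:8663359-8667038) had chr3:8666875-8667756, at an end of the gene, in all 19 lists, above 89.0% to 92.2% of summits in EB at 12 h and above 68.8% to 88.9% in the 5 fibroblast lists. Hey2 (chr10:30832359-30842783, minus strand) had chr10:30842821-30843023, at its start and within the printed sequence, in 17 lists, missing from the 2 knockdown lists of day 7. The Hey2 position in all 19 lists, chr10:30803014-30803277, lies 29082 bp from the gene and within 1 kb of Ncoa7. It scored above 96.9% to 97.7% of summits in EB at 12 h and above 89.6% to 95.7% in the 5 fibroblast lists without knockdown. Another Hey2 position, chr10:30810576-30811123, 21236 bp from the gene, was in 16 lists. Hes1 (chr16:30065357-30067796) had chr16:30063758-30064381, 976 bp outside the gene, in 14 lists, and chr16:30070268-30070849, 2472 bp beyond its other end, in 15. A Hes1 position at the same end as the first of these, chr16:30065179-30065582, was in all 3 EB lists and 3 of 4 floxed lists, and among the 12 fibroblast lists only in induced day 1 cells, above 45.4% of that list's summits.

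Several Hey and Hes positions were absent from the uninduced control and present after Dox. The position chr3:8716622-8716684, 49584 bp from Hey1, was in induced Flk1-positive EB (above 49.5% of summits), induced EB (58.7%) and 1 floxed list, and not in uninduced EB. The position chr16:30102453-30102575, 34657 bp from Hes1, was in Flk1-positive EB (33.4%) and induced EB (51.7%) and in no other list. In fibroblasts, chr3:8619648-8619739 near Hey1 was in the day 1 list (43.4%) and the day 7 Flk1-positive list (29.7%) and in no other list. Inside Hey1, chr3:8664787-8664952 was in the day 1 list (50.6%), the induced knockdown list of day 2 and all 3 EB lists. The position chr10:30802383-30802627 near Hey2 was in day 1 fibroblasts (19.4%) and Flk1-positive EB (49.3%). It lies within 500 bp of chr10:30803014-30803277, which was in all 19 lists. At the lowest scores, chr10:30844084-30844099, 1301 bp upstream of the Hey2 start, was in Flk1-positive EB (11.9%) and induced EB (0.22%). It lies within 500 bp of chr10:30844423-30844472, which was in uninduced EB too. Of the 99 positions, 12 were in an induced fibroblast list without knockdown and not in the uninduced list (12.1%, against 7.97% of all genome positions), 4 of them around Notch4, 3 around Rbpj, 2 around Hey1 and 0 around Dll4 or Notch1. Some of the 12 lie within 500 bp of a position in the uninduced list, as given above for Hey2 and Rbpj.

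**Figure D3:**
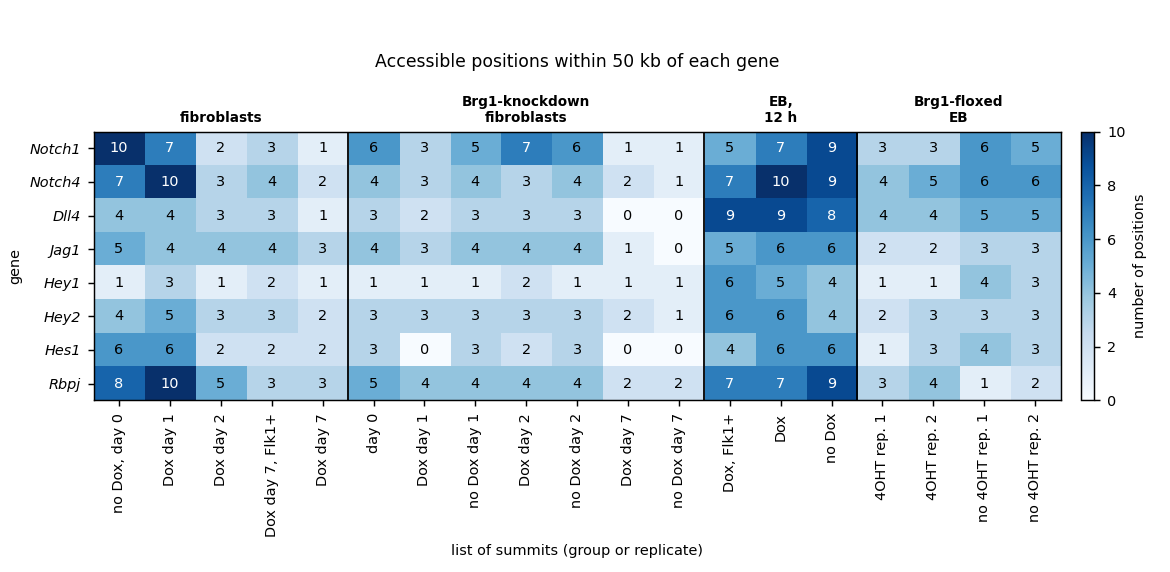
Number of positions within 50 kb of each gene (rows) in each list (columns), printed in each cell. Dll4 has 8 or 9 in the EB lists at 12 h and at most 4 in any fibroblast list, and Hey1 has 4 to 6 against 1 to 3.

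The first comparison set induced fibroblasts against uninduced fibroblasts of day 0, so Dox and days in culture cannot be told apart in it. Without Dox, knockdown fibroblasts held 29 positions around the 8 genes on day 0, 27 on day 1, 28 on day 2 and 6 on day 7. The induced lists share the uninduced list as their control, so their values are set side by side only. On day 1, 11 of 56 positions were gained (19.6%, exact 95% interval 10.2 to 32.4%), where 11.3% of all genome positions were, and 7 were lost (12.5%, interval 5.18 to 24.1%), where 32.3% of genome positions were. Notch4 gained 4 and lost 1, Rbpj gained 3 and lost 1, Hey1 gained 2 and lost 0, and Notch1 gained 0 and lost 3. With only summits scoring at least 10 counted, 0 of 31 were gained. With lists cut to equal length, 15 of 55 were gained (27.3%, genome 17.6%) and 6 lost (10.9%, genome 22.3%). On day 2, 1 of 46 positions was gained (2.17%, genome 4.74%) and 23 were lost (50%, genome 63.0%), of which 8 belonged to Notch1. On day 7, 0 of 45 were gained (interval 0 to 7.87%, genome 5.17%) and 30 were lost (66.7%, genome 75.3%). Dll4 lost 1 of its 4 positions on day 2 and 3 on day 7. Beside these losses the whole list shortened, and the positions around 10 fibroblast markers numbered 69 uninduced, 45 on day 1, 21 on day 2 and 8 on day 7. Their part in the result was not tested. The losses depended on list length. With both lists of a pair cut to equal length, 5 of 28 positions were lost on day 2 (17.9%, genome 29.4%) and 3 gained (10.7%, genome 21.1%). On day 7, 8 of 23 were then lost (34.8%, genome 38.7%) and 3 gained (13%, genome 26.9%).

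Flk1-positive fibroblasts on day 7 held more of the positions than unsorted cells of that day. They had 10 of 25 positions that unsorted cells lacked (40.0%, interval 21.1 to 61.3%), where 47.6% of genome positions were gained, and lacked 1 (4.0%, genome 10.1%). Notch1, Notch4 and Dll4 had 2 more positions each, and Jag1, Hey1 and Hey2 had 1 more each. With lists cut to equal length the gained share was 11.8% (2 of 17, genome 30.0%) and 1 was lost (5.88%, genome 24.2%). In a 10 kb window the gained share was 16.7%. Against uninduced fibroblasts, Flk1-positive cells gained 3 of 48 positions (6.25%, genome 7.79%), 1 each at Notch4, Jag1 and Hey1, and lost 24 (50%, genome 58.9%). With lists cut to equal length they gained 4 of 31 (12.9%, genome 25.1%) and lost 7 (22.6%, genome 31.3%). Endothelial marker genes had 23 positions in Flk1-positive cells, 10 in unsorted day 7 cells and 51 in uninduced fibroblasts, and Sox17 had none in these 3 lists. Per 10000 positions of each list these were 9.49, 7.08 and 9.38.

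**Figure D4:**
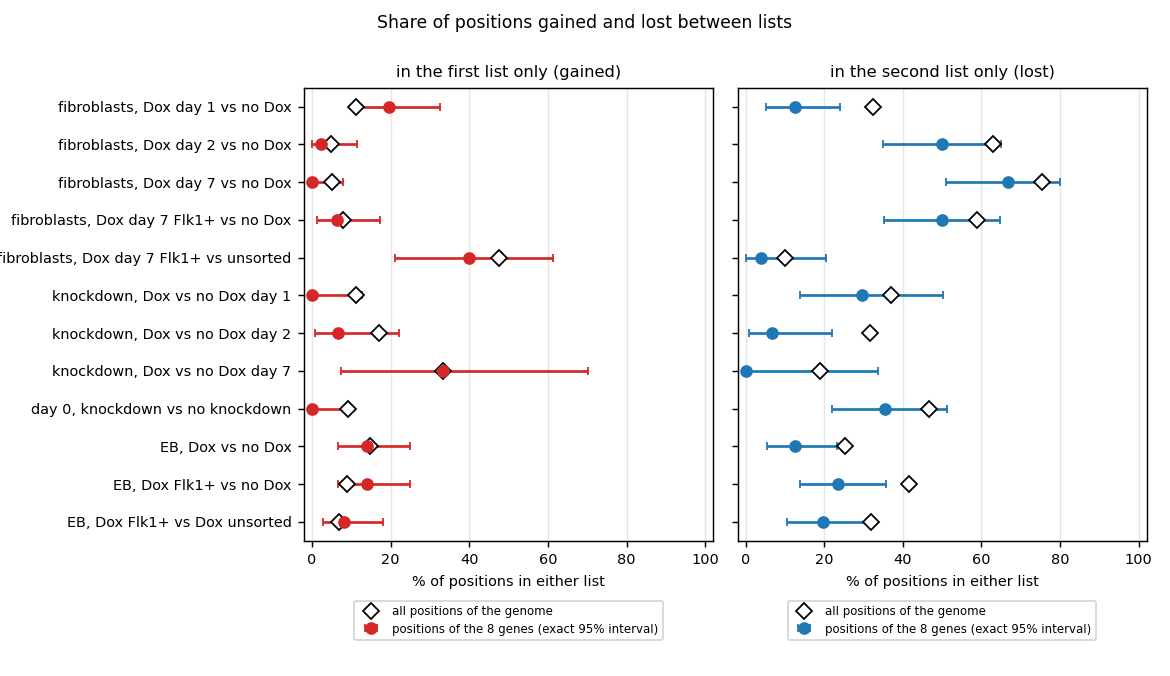
Share of positions gained (left) and lost (right), in percent of the positions in either list, for 12 pairs of lists, as filled circles with exact 95% intervals for the 8 genes and as open diamonds for all positions of the genome. The intervals cover counting error only. In all 12 pairs the lost share of the 8 genes lies to the left of the diamond. The diamond lies beyond the interval for fibroblasts on day 1 (32.3%), for knockdown fibroblasts with Dox on day 2 (31.6%) and for each EB pair (25.3%, 41.6% and 32.0%).

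In knockdown fibroblasts each induced list has its own uninduced control of the same day. On day 1, 0 of 27 positions were gained (interval 0 to 12.8%, genome 11.3%) and 8 were lost (29.6%, genome 37.0%). Hes1 had 0 positions with Dox and 3 without, the largest loss of the 8 genes in that pair. On day 2, 2 of 30 were gained (6.67%, genome 17.1%), 1 at Notch1 and 1 at Hey1, and 2 were lost (6.67%, genome 31.6%). On day 7 the lists held 9 positions with Dox and 6 without, of which 3 were gained (33.3%, genome 33.3%) and 0 lost (genome 19%). Those lists are the shortest of all, and a single position moves the share by a large step. On day 0, knockdown fibroblasts held 0 positions that fibroblasts without knockdown lacked (genome 9.22%) and lacked 16 of 45 (35.6%, genome 46.7%). With lists cut to equal length that balance was gone, with 5 of 35 gained (14.3%, genome 23.2%) and 5 lost (14.3%, genome 25.0%). Equal lengths on day 7 likewise gave 2 of 8 gained (25.0%, genome 25.5%) and 2 lost (25.0%, genome 27.1%). The knockdown lists were made in another processing run, by the summit names in the files, so knockdown and processing cannot be told apart.

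The question in EB was what 12 h of Etv2 induction opens and closes, and both induced lists share the uninduced list. In induced EB, 9 of 64 positions were gained (14.1%, interval 6.64 to 25.0%), where 14.8% of genome positions were, and 8 were lost (12.5%, genome 25.3%). Hey2 gained 2 and lost 0, Hes1 gained 2 and lost 2, and Notch1 gained 1 and lost 3. With only summits scoring at least 10 counted, 4 of 42 were gained and 11 lost. In Flk1-positive induced EB, 9 of 64 positions were gained relative to uninduced EB (14.1%, genome 8.76%) and 15 were lost (23.4%, genome 41.6%). Hey1 and Hey2 gained 2 each and lost 0, Dll4 gained 1 and lost 0, and Notch1 lost 4 and gained 0. Relative to induced unsorted EB, the Flk1-positive cells gained 5 of 61 positions (8.20%, genome 6.82%) and lost 12 (19.7%, genome 32.0%). In both Flk1-positive comparisons the balance turned with lists cut to equal length. Against uninduced EB 13 of 57 positions were then gained (22.8%, genome 18.4%) and 8 lost (14%, genome 23.0%), and against induced unsorted EB 8 of 53 were gained (15.1%, genome 15%) and 4 lost (7.55%, genome 16.8%). With only summits scoring at least 10 counted, the gained shares were 2.56% and 0%, so these data give no settled direction for the sum over the 8 genes. The summed pluripotency markers, given above, were lower in the Flk1-positive list, as were the endothelial, blood, mesoderm and fibroblast marker sums, and that list is shorter. Per 10000 positions of each list the pluripotency markers had 10.8 in Flk1-positive, 11.2 in induced and 9.48 in uninduced EB. In the same order the endothelial markers had 12.0, 13.6 and 10.8. The blood (8.41, 7.60 and 7.43), mesoderm (8.41, 6.72 and 7.17) and fibroblast markers (7.60, 7.45 and 6.79) were highest in the Flk1-positive list by this measure. The part of the markers in these shares was not tested.

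In Brg1-floxed EB the lists are per sample, so the spread can be shown. Around the 8 genes, EB with 4OHT held 20 and 25 positions, against 32 and 30 in EB without it. The groups did not overlap, and neither did the lengths of their lists. The means were 22.5 ± 3.54 with 4OHT and 31.0 ± 1.41 without (SD, n = 2 each), a difference of -8.5, and the exact permutation test (two-sided) gave p = 0.333, the smallest that 2 against 2 allows. Relative to the length of each list the groups overlapped, with 11.2 and 12.5 positions per 10000 with 4OHT and 10.3 and 12.7 without. They also overlapped with only summits scoring at least 10 counted, with 17 and 14 positions with 4OHT and 17 and 16 without (difference -1.0, exact permutation p = 1.0).

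Notch1 had 3 and 3 positions with 4OHT and 6 and 5 without. Hey1 had 1 and 1 with 4OHT and 4 and 3 without. Rbpj went the other way, with 3 and 4 positions with 4OHT and 1 and 2 without. Dll4 (4 and 4 with 4OHT, 5 and 5 without), Jag1 (2 and 2, 3 and 3) and Notch4 (4 and 5, 6 and 6) also did not overlap, while the values of Hey2 and Hes1 did. Both counts with 4OHT were thus below both without it for 5 of the 8 genes, as for 29.3% of all protein-coding genes, and above for 1, as for 1.42%. Because the lists with 4OHT are the shorter ones, these counts are a description and not a result about the 8 genes. Of the 40 positions in any floxed list, 3 were in both lists without 4OHT and in neither with it (7.5%, where 12.7% of genome positions were). These were chr2:26486891-26487171 inside Notch1, and chr3:8685242-8685350 and chr3:8709554-8709559 near Hey1. The first of the Hey1 positions was also in all 3 EB lists at 12 h, above 80.4% of summits in Flk1-positive, 76.6% in induced and 68.8% in uninduced EB. In both lists with 4OHT and neither without was 1 position, at Rbpj (2.5%, genome 2.01%), and 17 were in all 4 lists (42.5%, genome 35.8%). The Rbpj position is chr5:53582871-53583771, and its summits with 4OHT, 53582871 and 53583771, are its opposite ends, so the replicates share no summit there. Fibroblast markers had 11 and 13 positions with 4OHT and 30 and 23 without, and mesoderm markers 19 and 18 with 4OHT and 39 and 31 without. The endothelial (20 and 22, 39 and 32), pluripotency (17 and 20, 33 and 25) and blood (19 and 19, 32 and 25) marker sums were lower with 4OHT too. Per 10000 positions of the list, the blood values overlapped (10.7 and 9.48, 10.3 and 10.6), and the other marker values stayed lower with 4OHT. The part of the markers in the result was not tested. Smarca4, the Brg1 gene, had 3 and 3 positions with 4OHT and 5 and 4 without; a deleted exon cannot be read from summits.

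**Figure D5:**
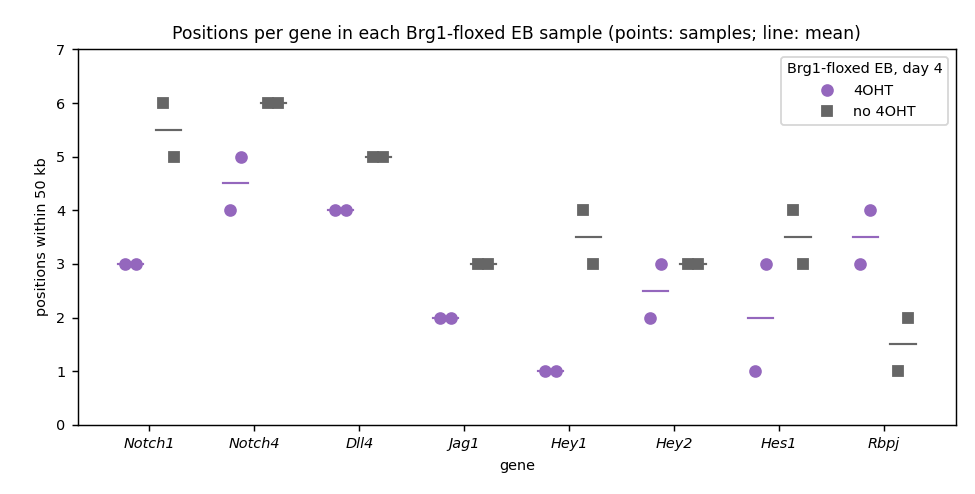
Number of positions within 50 kb of each gene in each Brg1-floxed EB sample, with 4OHT (purple circles) and without (grey squares), lines marking the means of 2 samples. All genes lie lower with 4OHT on average except Rbpj, which has 3 and 4 with 4OHT and 1 and 2 without.

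A further 32 genes of the pathway, among them other receptors, ligands, Fringe glycosyltransferases, Mastermind coactivators and gamma-secretase subunits, were read in the same way and had 484 positions. On day 1 in fibroblasts 4 of the 31 with a position had more gained than lost (12.5% of all protein-coding genes did) and 23 had more lost than gained (62.3%). Of these 31, 0 had more gained on day 2 (2.82%) and 1 on day 7 (2.90%), while 28 (88.3%) and 29 (91.5%) had more lost. The median gene of the list lost 3 positions net on day 2 and 5 on day 7, against 3 and 4 for all genes. Maml2, a Mastermind coactivator, lost 14 on day 2 and 18 on day 7 and gained 0, and Notch3, a receptor of vascular smooth muscle, lost 5 on day 1 and gained 0. In Flk1-positive day 7 fibroblasts against unsorted cells 27 of 30 had more gained (67.6%) and 1 more lost (6.52%). Against uninduced fibroblasts, Flk1-positive cells had 1 of 31 with more gained (3.83%) and 28 with more lost (85.4%). In knockdown fibroblasts on day 0 against uninduced fibroblasts without knockdown, 1 of 31 had more gained (7.48%) and 24 more lost (74.6%). In knockdown fibroblasts with Dox against those without it, 30, 30 and 21 genes had a position on days 1, 2 and 7. Of these, 3, 6 and 5 had more gained (9.98%, 24.1% and 36.5% of all genes), and 20, 12 and 8 had more lost (56.9%, 41.2% and 23.5%).

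In EB, 7 of the 32 had more gained after induction (26.5% of all genes) and 11 more lost (43.6%), and in Flk1-positive induced EB against uninduced EB 9 had more gained (9.07%) and 17 more lost (70.7%). Against induced unsorted EB, the Flk1-positive cells had 8 with more gained (8.29%) and 16 with more lost (64.5%). Mfng, a Fringe enzyme that modifies Notch receptors, had 6 positions in Flk1-positive, 7 in induced and 4 in uninduced EB, and 0 in all 12 fibroblast lists. Dtx1, a Deltex ubiquitin ligase, had 7, 8 and 11 in the same EB lists and 0 or 1 in fibroblasts. Lfng, a second Fringe enzyme, lost 6 and gained 0 in Flk1-positive against uninduced EB, and Dlk1, a non-canonical ligand, lost 5 and gained 0.

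The genes whose counts of positions over the 15 pooled lists were most like those of Dll4 were Oaf (Spearman rho 0.99), Ocm (0.99), Myrip (0.99), Piwil4 (0.98) and Pcdh1 (0.98). None has a window that overlaps that of Dll4. The lists share their length as a common influence, so these values describe likeness and carry no p. Pcdh1, a protocadherin, had 14 positions in Flk1-positive, 16 in induced and 14 in uninduced EB, and 0 to 6 in fibroblast lists.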

How the data were processed

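ATAC-seq with Tn5 transposase gave paired reads, per the labels' protocols. Reads were aligned with Bowtie2 2.2.4 to mm10, with MACS2 as peak caller and HOMER also listed, per the submitters' processing notes. The deposited files used here list summits with a score, the −log10 q that MACS2 writes. All deposited scores were at least 1.30, a q-value of 0.05. Scores grow with depth, so they were compared only as the percentage of summits of the same list that scored lower. How replicates were combined, duplicate handling and read depth are not given in the sources used here. Signal tracks were not used here.

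Python 3.11.15 with numpy 2.4.6 and scipy 1.17.1 was used. Chromosomes 1 to 19 and X were used. A position joined summits within 250 bp over all 19 lists, and genes came from the GRCm38.p6 table of RefSeq. Shares have exact Clopper-Pearson 95% intervals for counting error only. The 4 floxed EB lists were compared by an exact permutation test, and nothing says whether their replicates are separate cultures, so the p-value may measure technical spread. Joining and counting were tested on simulated data. Sequence motifs had been planned for the open positions and were read in promoters instead, since the genome was not used here.

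The members, gene lists and rules were chosen with earlier results of these data known. Positions named by rule are, per gene, up to 3 absent from the uninduced control and present in most induced lists, those in all 19 lists, up to 2 in both floxed lists without 4OHT and neither with it, and up to 2 in uninduced fibroblasts but no induced fibroblast list without knockdown. Positions at gene starts and gene-specific positions beyond these were chosen after their values were seen. From the 32 further genes, up to 3 with the highest and 3 with the lowest gained minus lost per comparison may be named. Alternatives were a 10 kb window, joining within 100 or 500 bp, scores of at least 10, lists cut to equal length, and leaving out each floxed sample.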

Additional observations from a re-analysis of the deposited data

How the results depend on the processing

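Of 60 values of the gained share (12 comparisons under 5 alternatives), 45 stayed within the counting interval and 15 moved beyond it. Counting only scores of at least 10 gave 0.0% on day 1, 0.0% on day 2 and 0.0% in Flk1-positive cells, each against uninduced fibroblasts, 72.7% in Flk1-positive against unsorted day 7 fibroblasts, 100% (2 of 2 positions) in knockdown fibroblasts on day 7, and in Flk1-positive EB 2.56% against uninduced and 0.0% against induced EB. Equal list lengths gave 13% on day 7, 11.8% in Flk1-positive against unsorted fibroblasts and 14.3% in knockdown against other fibroblasts on day 0. Equal lengths also turned the balance of gained and lost positions in both Flk1-positive EB comparisons, to 13 gained and 8 lost against uninduced and 8 gained and 4 lost against induced EB. Joining within 100 bp gave 9.52% for that day 0 pair, and 25.3% and 18.5% in Flk1-positive EB against uninduced and induced EB. Joining within 500 bp gave 0.0% on day 2, and the 10 kb window gave 16.7% in Flk1-positive against unsorted fibroblasts. Apart from the shorter or fewer positions that each alternative leaves, the cause was not tested.

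In floxed EB the difference of 4OHT minus no 4OHT was -8.5 positions, between -11.0 and -6.0 when 1 sample was left out, -5.0 with equal list lengths, -3.5 in the 10 kb window and -1.0 with scores of at least 10, where the groups overlapped. With the replicate number as a block it was -8.5 (exact permutation p = 0.5, the smallest that 2 pairs allow), and the samples share only a number. Read depth is unknown, so a position missing from a short list was not called there and is not shown to be closed.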
